A study of Mus musculus with 12 samples.

Results

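Genes of the clearance of dying cells were followed across 12 RNA-seq libraries of myeloid-derived suppressor cells (MDSC), which are immature relatives of monocytes and neutrophils that accumulate with a tumour and dampen T cell responses. The 9 genes were taken by name: the 3 chains of complement C1q (C1qa, C1qb and C1qc), the bridging ligand Gas6, its receptors Axl and Mertk, the mannose receptor Mrc1, and the macrophage genes Cd5l and Vcam1. All 9 were among the 23479 genes of the deposited table. Cells were sorted from spleens of C57BL/6 mice bearing established B16 melanomas (over 25 mm2), 7 days after treatment, to a stated purity above 99%. The 4 groups of 3 libraries were monocytic cells of mice lymphodepleted with the chemotherapy drugs cyclophosphamide and fludarabine (M-MDSC LD), monocytic cells of untreated mice (M-MDSC Ctrl), and the matching groups of polymorphonuclear, neutrophil-like cells (PMN-MDSC LD and PMN-MDSC Ctrl). All 4 groups came from tumour-bearing mice, so no tumour-free mouse stands beside them. The labels give no number of mice and do not tie a replicate to its own animal, and p-values therefore cover only the spread between these libraries, which may be technical.

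C1q is the recognition molecule of the classical complement pathway. It binds immune complexes and the surface of dying cells, and macrophages and dendritic cells make most of it. AXL and MERTK belong with TYRO3 to the TAM receptor tyrosine kinases, which do not touch a dying cell directly: GAS6 or protein S (the product of Pros1) binds phosphatidylserine on its surface and bridges it to the receptor, and the cell is then engulfed, a process called efferocytosis. In the spleen, red pulp macrophages carry out much of this clearance, and they carry VCAM1 and make CD5L.

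The libraries held between 8906045 and 16242926 reads assigned to genes. Levels are normalized counts, which are reads divided by 1 size factor per library, and are not corrected for gene length unless said. LD replicate 1 stood apart in both populations by Mki67, a marker of cycling cells: Mki67 had 8133, 2434.4 and 3201 normalized counts in M-MDSC LD (replicates 1, 2 and 3) against 774.7 to 954.6 in M-MDSC Ctrl, and 6242, 1261 and 2025 in PMN-MDSC LD against 1688 to 2097 in PMN-MDSC Ctrl. The sorted populations carried the markers of their labels in untreated mice: all 10 monocyte markers were higher and all 10 neutrophil markers lower in M-MDSC Ctrl than in PMN-MDSC Ctrl, beside 38.8% and 36.8% of all genes. In LD mice 9 of the 10 monocyte markers were higher and all 10 neutrophil markers lower, beside 38.8% and 36.1% of all genes. The exception was Ly6c2, with 2196 ± 218 normalized counts in M-MDSC LD and 1975 ± 215 in PMN-MDSC LD (SD, n = 3). In M-MDSC the summed level of the neutrophil markers was 18381 to 82145 normalized counts in LD and 7143 to 8282 in Ctrl, and 7 of the 10 markers rose, beside 2.54% of all genes.

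In M-MDSC, 4 of the 8 members that could be tested were higher in LD than in Ctrl (C1qa, C1qc, Axl and Vcam1) and none was lower, beside 2.54% of the 11122 genes tested that were called higher and 0.468% that were called lower. The members were chosen with earlier results of these data known, so the count is a description. A gene was called when its limma p-value, Benjamini-Hochberg adjusted over the genes of that comparison, was under 0.05. The LD and Ctrl libraries did not overlap for 7 of the 8, all but Mrc1, beside 23.1% of all genes tested. One of the 7, Cd5l, had only 4 to 8 reads in each M-MDSC Ctrl library. The median log2 change of the 8 was 1.57, and that of all genes was -0.04. In PMN-MDSC none of the 8 was called by limma, edgeR or DESeq2, and none had an unadjusted limma p under 0.05, beside 15.7% of all genes called in either direction by limma. The members' levels were modest: by mean over the 12 libraries Axl stood at the 64.6th percentile of the genes tested, Vcam1 at the 27.6th, Mrc1 at the 24.9th, and the other 5 between the 6.3rd (Mertk) and the 19.1st (C1qb).

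**Figure D1:**
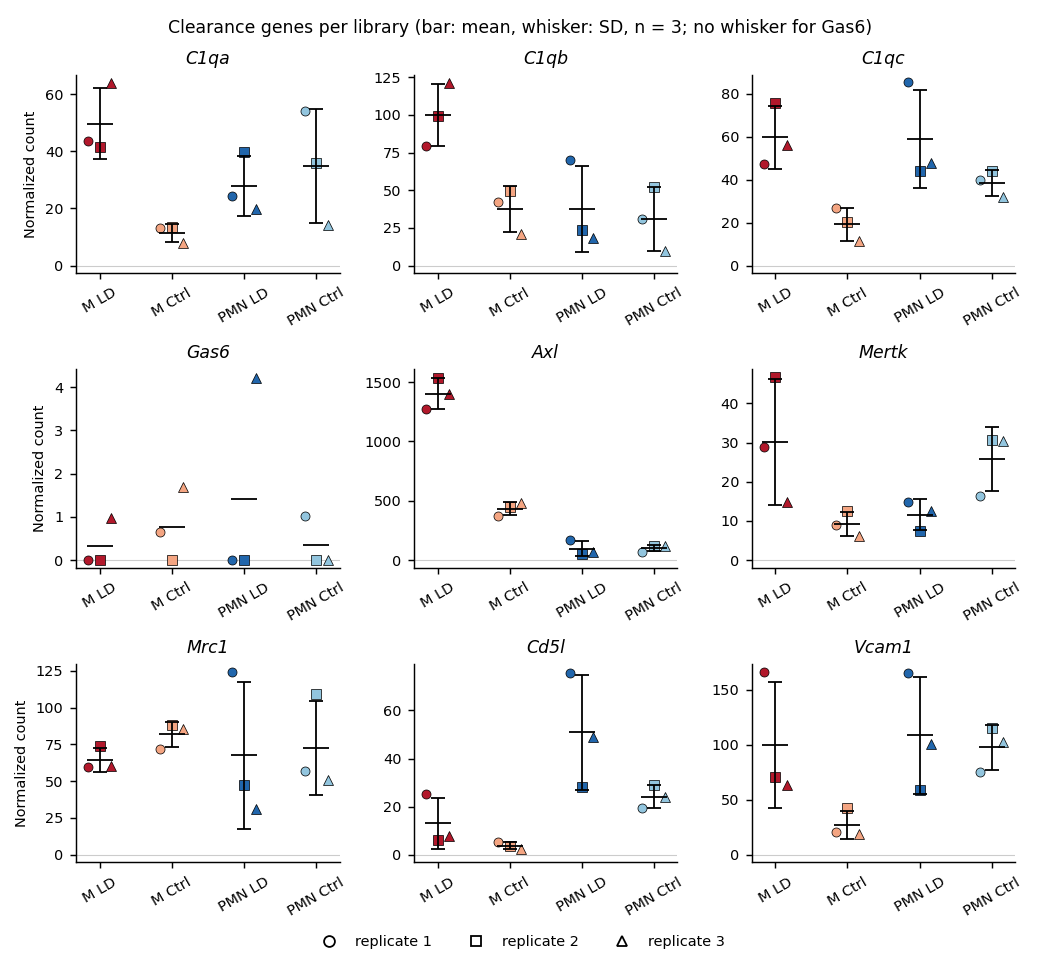
Normalized counts of the 9 genes (y axes, linear, each with its own range) in every library of the 4 groups (x axes); symbols are replicates 1 to 3, the wide bar is the mean and the whiskers are 1 SD (n = 3), left out for Gas6. Axl lies between 1274 and 1534 in M-MDSC LD, above every other library, and Cd5l and Vcam1 are highest in replicate 1 within M-MDSC LD and within PMN-MDSC LD.

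The C1q chains were described first. C1qa, which encodes the A chain, had 43.5, 41.6 and 64.0 normalized counts in M-MDSC LD, against 12.97, 13.4 and 7.85 in M-MDSC Ctrl. All LD libraries lay above all Ctrl libraries, and the fitted fold was 4.11 (log2 change 2.04 ± 0.50 SE, limma adjusted p = 0.0396). C1qc, the C chain, had 47.1, 75.6 and 56.2 in M-MDSC LD, against 26.6, 20.1 and 11.2 in M-MDSC Ctrl. It was 3.09-fold higher, again without overlap (1.63 ± 0.40, limma adjusted p = 0.0402). C1qb, the B chain, had 79.7, 99.3 and 121.2 in M-MDSC LD, against 42.2, 49.8 and 20.8 in M-MDSC Ctrl. These groups did not overlap either, but the change did not pass the test (1.46 ± 0.60, limma adjusted p = 0.278). With sample weights limma called C1qb (1.78, limma adjusted p = 0.0292), whereas edgeR (edgeR adjusted p = 0.217) and DESeq2 (DESeq2 adjusted p = 0.125) did not. In bulk RNA, more cells that make C1q and more C1q RNA per cell cannot be told apart.

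The C1q calls in M-MDSC lie close to the threshold. They also rest on few reads, 14 to 20 of C1qa and 20 to 41 of C1qc in each M-MDSC Ctrl library. C1qa was not called when any of the 6 M-MDSC libraries or PMN-MDSC Ctrl replicate 2 was left out, with limma adjusted p of 0.0612 (without that PMN-MDSC library) to 0.158 (without M-MDSC Ctrl replicate 3) and log2 changes of 1.81 to 2.16 over the 12 fits that left out 1 library. C1qc was not called without any of M-MDSC LD replicates 1, 2 or 3, M-MDSC Ctrl replicates 2 or 3, or PMN-MDSC Ctrl replicates 1, 2 or 3, with limma adjusted p of 0.0564 to 0.172 and changes of 1.302 to 1.889 over the 12 fits. LD replicate 1, the library with the most Mki67, had the lowest C1qb and C1qc of the M-MDSC LD group.

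In PMN-MDSC the same chains had other patterns. C1qa had 24.3, 39.7 and 19.6 normalized counts in PMN-MDSC LD, against 54.1, 36.0 and 14.4 in PMN-MDSC Ctrl, and the groups overlapped (log2 change -0.19, 95% interval -1.26 to 0.88). C1qb had 70.3, 23.5 and 18.2 in PMN-MDSC LD, against 30.6, 51.9 and 9.6 in PMN-MDSC Ctrl, also with overlap (0.31, interval -0.97 to 1.59). C1qc had 85.2, 44.1 and 47.7 in PMN-MDSC LD, against 39.8, 43.9 and 31.9 in PMN-MDSC Ctrl. Its groups just failed to overlap, as those of 31.9% of all genes did, and the change was 0.55 (interval -0.31 to 1.41, limma adjusted p = 0.380). PMN-MDSC LD replicate 1 was the highest for C1qb and C1qc. The LD change in M-MDSC minus that in PMN-MDSC was 2.22 ± 0.71 for C1qa (limma adjusted p = 0.114), 1.15 ± 0.84 for C1qb (0.510) and 1.08 ± 0.57 for C1qc (0.340), so none of the 3 chains passed limma's test of the difference. DESeq2 called it for C1qa (2.48, adjusted p = 0.0175), and edgeR did not (edgeR adjusted p = 0.0779).

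The populations were then set side by side. In untreated mice C1qa and C1qc were lower in M-MDSC than in PMN-MDSC, 2.60-fold and 2.04-fold (log2 differences of -1.38 ± 0.50 and -1.03 ± 0.40, limma adjusted p = 0.0215 and 0.0305). C1qb differed by 0.48 ± 0.60 there (limma adjusted p = 0.478). In LD mice C1qb was 3.09-fold higher in M-MDSC (1.63 ± 0.60, limma adjusted p = 0.0232), whereas the difference was 0.84 (95% interval -0.23 to 1.91) for C1qa and 0.05 (interval -0.81 to 0.91) for C1qc. Some of these calls hang on 1 library. In Ctrl, C1qa was not called without M-MDSC replicate 3 (limma adjusted p = 0.0802) or PMN-MDSC replicates 1 (0.113) or 2 (0.0665), and C1qc was not called without the same libraries (0.145, 0.0684 and 0.0888). With no minimum level C1qc was not called there either (limma adjusted p = 0.0583). In LD, C1qb was not called without M-MDSC replicates 2 (limma adjusted p = 0.0502) or 3 (0.0719), or PMN-MDSC replicates 2 (0.0715) or 3 (0.0969).

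Per length, the chains were not in equal amounts. In M-MDSC LD, C1qb had 91.97 ± 19.1 normalized counts per kb of exon (SD, n = 3), C1qa 47.8 ± 11.97 and C1qc 30.9 ± 7.5. In M-MDSC Ctrl, C1qb had 34.5 ± 13.8 per kb, C1qa 11.0 ± 3.0 and C1qc 9.995 ± 4.0. C1qb therefore made up 52.5% to 55.1% of the per-length sum in the M-MDSC LD libraries and 58.8% to 66.3% in the M-MDSC Ctrl libraries. In PMN-MDSC the B chain held less of the sum, 26.2% to 48.9% in LD and 22.5% to 45.4% in Ctrl, with no overlap with any M-MDSC library. These shares were not tested, and in the PMN-MDSC libraries they rest on 6 to 63 reads per chain.

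**Figure D2:**
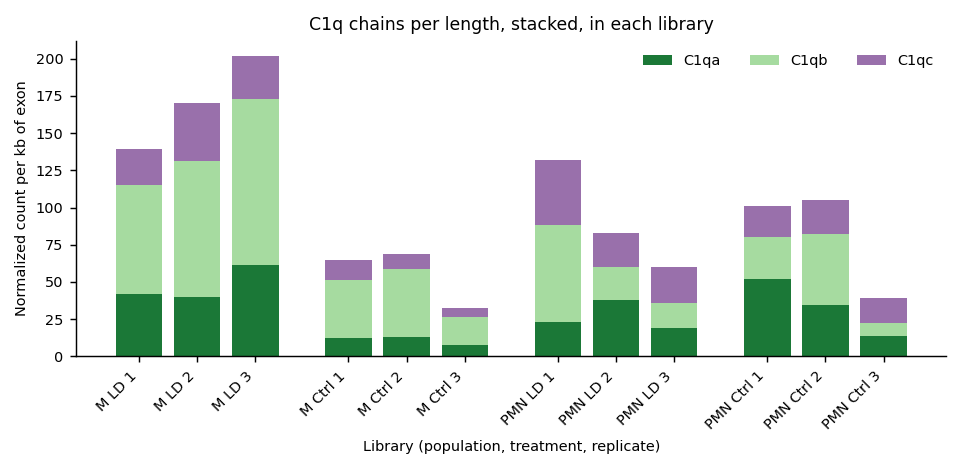
Normalized counts per kb of exon (y axis, from 0) of C1qa, C1qb and C1qc, stacked, in each of the 12 libraries (x axis). The stacks of the 3 M-MDSC LD libraries are taller than those of the 3 M-MDSC Ctrl libraries, and C1qb, in the middle of each stack, takes at least 52.5% of the sum in every M-MDSC library and at most 48.9% in every PMN-MDSC library.

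The C1q genes lie side by side. On mm10 they span chr4:136880126-136898844 on the minus strand in the order C1qb, C1qc and C1qa, with 3600 and 2979 bases between them and no other RefSeq gene in these 18719 bases. Windows of 300 bases around the RefSeq start sites (250 before and 50 after, GRCm38.p6) were found for C1qb and C1qc, and are printed because these neighbours were both higher in every M-MDSC LD library than in every M-MDSC Ctrl library. Both are written 5′ to 3′ along the gene, C1qb from chr4:136886151-136886450 and C1qc from chr4:136892865-136893164. Capitals mark exact matches, on either strand, to GAGGAA (the core bound by PU.1, the myeloid ETS factor), TGCTGA (a half-site of MAF factors) or GGGCGG (the GC box).
C1qb: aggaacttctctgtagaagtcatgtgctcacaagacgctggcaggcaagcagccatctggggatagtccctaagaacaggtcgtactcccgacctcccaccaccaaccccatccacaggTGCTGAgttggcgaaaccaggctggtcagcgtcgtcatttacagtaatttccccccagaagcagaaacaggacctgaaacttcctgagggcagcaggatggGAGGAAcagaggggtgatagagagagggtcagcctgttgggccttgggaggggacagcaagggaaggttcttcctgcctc
C1qc: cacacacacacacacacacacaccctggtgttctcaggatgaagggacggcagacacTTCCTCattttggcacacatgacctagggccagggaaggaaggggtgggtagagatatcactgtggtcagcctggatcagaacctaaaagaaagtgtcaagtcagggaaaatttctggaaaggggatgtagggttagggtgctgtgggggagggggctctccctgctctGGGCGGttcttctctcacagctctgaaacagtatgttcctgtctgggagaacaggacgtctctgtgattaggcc
The C1qb window holds TGCTGA 131 bases and GAGGAA 30 bases before the start site. The C1qc window holds GAGGAA, on the other strand, 193 bases before it and a GC box 24 bases before it. Neither holds the interferon-factor pattern GAAANNGAAA. Of 32851 such windows, 28.3% held GAGGAA, 19.5% TGCTGA, 35.7% the GC box and 3.4% GAAANNGAAA. No matches overlap in the windows printed here. The C1qc start site used here lies 22 bases inside the RefSeq gene. A match is a description of the letters and not a bound site.

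Gas6, the ligand of AXL and MERTK, was at the limit of detection. It had 9 reads in all 12 libraries together, with 0 or 1 in each M-MDSC LD library, 0 to 3 in M-MDSC Ctrl, 0 to 3 in PMN-MDSC LD and 0 or 1 in PMN-MDSC Ctrl. It did not reach the minimum mean of 10 normalized counts and was not tested. The other bridging ligand was plentiful in monocytic cells: Pros1 had 606.4 ± 38.9 normalized counts in M-MDSC LD and 757.0 ± 82.3 in M-MDSC Ctrl, against 29.4 ± 17.8 in PMN-MDSC LD and 34.1 ± 20.9 in PMN-MDSC Ctrl. It was higher in M-MDSC than in PMN-MDSC by 4.55 ± 0.45 log2 units in LD and 4.58 ± 0.45 in Ctrl (limma adjusted p = 3.5e-07 and 3.2e-07). Its LD change in M-MDSC was -0.32 ± 0.45 (limma adjusted p = 0.898).

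Axl had the highest level of the 9 members, and its LD change in M-MDSC was called in all but 1 of 25 alternatives. It had 1274, 1534 and 1398 normalized counts in M-MDSC LD, against 374.8, 444.9 and 479.6 in M-MDSC Ctrl. Every LD library lay far above the Ctrl libraries, and the fitted fold was 3.24 (log2 change 1.70 ± 0.33, limma adjusted p = 0.0104). Leaving out M-MDSC Ctrl replicate 1 put the limma adjusted p at 0.0545, and the change stayed between 1.60 and 1.77 over the 12 fits that left out 1 library. In PMN-MDSC, Axl had 173.1, 51.5 and 68.7 in LD, against 72.4, 117.8 and 114.9 in Ctrl. Replicate 1 was the highest of the 6 and replicates 2 and 3 were the lowest, and the change over all libraries was -0.22 (95% interval -0.93 to 0.49). Without PMN-MDSC LD replicate 1 it was -0.73 and was called (limma adjusted p = 0.0309).

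The LD change of Axl was larger in M-MDSC than in PMN-MDSC by 1.92 ± 0.47 log2 units (limma adjusted p = 0.0482), 1 of 8 members higher and 0 lower in that test, beside 1.18% of all genes called higher and 1.07% lower. It was lost, with limma adjusted p of 0.0598 to 0.117, on leaving out any of 10 libraries, that is all but replicate 1 of each PMN-MDSC group. Between populations Axl was 16.3-fold higher in M-MDSC than in PMN-MDSC in LD (4.02 ± 0.33, limma adjusted p = 4.6e-08) and 4.30-fold higher in Ctrl (2.11 ± 0.33, limma adjusted p = 4.3e-05). Both calls held in every alternative. The order of its levels was M-MDSC LD, M-MDSC Ctrl and then the PMN-MDSC groups, which overlapped.

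Mertk, the TAM receptor of resting tissue macrophages, was far scarcer, with 7.0 ± 3.7 normalized counts per kb in M-MDSC LD and 2.1 ± 0.7 in M-MDSC Ctrl where Axl had 278.5 ± 25.9 and 86.1 ± 10.6. It had 29.0, 46.7 and 14.8 normalized counts in M-MDSC LD, against 9.1, 12.4 and 6.2 in M-MDSC Ctrl. The groups did not overlap, but the change did not pass the test (1.51 ± 0.54, limma adjusted p = 0.178), nor did edgeR call it (edgeR adjusted p = 0.112). DESeq2 called it (1.74, adjusted p = 0.0463), as did limma with sample weights (1.62, limma adjusted p = 0.0381). In PMN-MDSC, Mertk had 14.9, 7.4 and 12.6 in LD, against 16.3, 30.8 and 30.3 in Ctrl. Here every LD library lay below every Ctrl library (-1.08 ± 0.54, limma adjusted p = 0.188). The difference between the LD changes was 2.60 ± 0.76, with limma adjusted p = 0.0864. DESeq2 called that difference (2.88, adjusted p = 0.0187), and so did limma without PMN-MDSC LD replicate 1 (2.79, limma adjusted p = 0.0479) and with sample weights (2.89, limma adjusted p = 0.0461). By edgeR that difference was not called (edgeR adjusted p = 0.0725).

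In untreated mice Mertk was 2.61-fold lower in M-MDSC than in PMN-MDSC (-1.38 ± 0.54, limma adjusted p = 0.0299). It was not called there without M-MDSC Ctrl replicates 1 (limma adjusted p = 0.0595) or 3 (0.104), or PMN-MDSC Ctrl replicates 2 (0.0915) or 3 (0.0880), or with no minimum level (0.0793). In LD mice the difference was 1.21 ± 0.54 (limma adjusted p = 0.0530), and edgeR called it (1.37, adjusted p = 0.0421). Mertk overlaps an antisense gene, Gm14011, and a small nucleolar RNA, and without stated strand use their reads cannot be told apart. Tyro3, the remaining TAM receptor, had no read in M-MDSC LD, PMN-MDSC LD or PMN-MDSC Ctrl and 2.2 normalized counts in 1 M-MDSC Ctrl library.

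The window of 300 bases around the Axl start site is printed because the LD change of Axl in M-MDSC was called by limma. It comes from chr7:25788684-25788983 on the minus strand, with the same capitals as above. The window's start site, at base 25788733, lies 191 bases inside the RefSeq gene, and no GENCODE transcript held the window's last 25 bases.
Axl: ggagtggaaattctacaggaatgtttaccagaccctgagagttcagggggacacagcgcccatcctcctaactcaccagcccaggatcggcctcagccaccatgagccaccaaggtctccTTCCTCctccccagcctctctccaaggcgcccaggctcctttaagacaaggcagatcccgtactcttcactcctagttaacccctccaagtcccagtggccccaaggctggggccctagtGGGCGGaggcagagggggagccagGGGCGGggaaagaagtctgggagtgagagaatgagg
It holds GAGGAA, on the other strand, 130 bases before the window's start site, and GC boxes starting 10 bases before and 15 bases after it. G and C made up 60.3% of it, against 56.3% of the C1qb window, 53.3% of the C1qc window and a median of 52.7% over all windows.

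**Figure D3:**
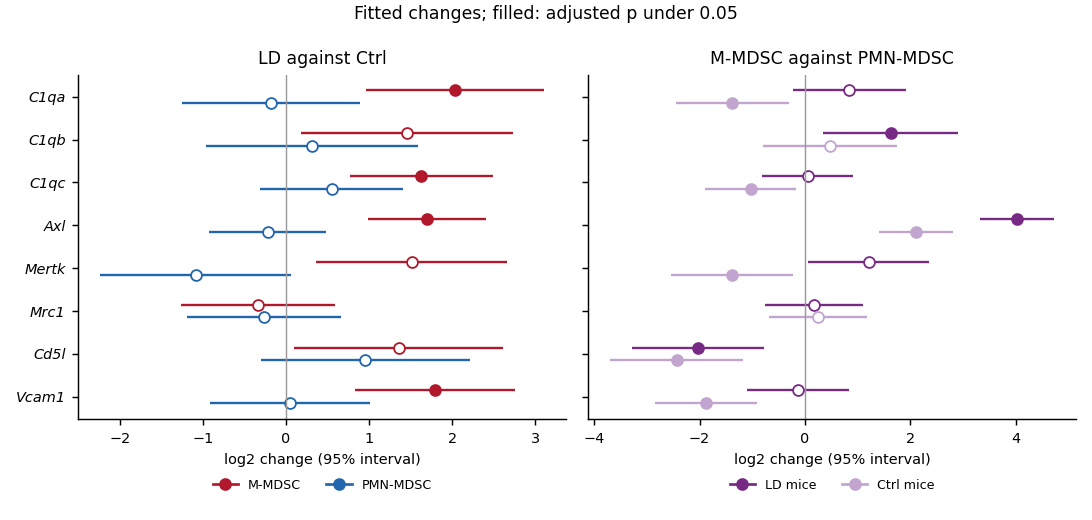
Fitted log2 changes (x axes) of the 8 members tested (rows), LD against Ctrl at the left and M-MDSC against PMN-MDSC at the right; lines are 95% intervals and filled points have a limma adjusted p under 0.05. C1qa, C1qc, Axl and Vcam1 are filled for M-MDSC at the left, no point is filled for PMN-MDSC there, and Axl is at 4.02 in LD mice and 2.11 in Ctrl mice at the right.

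Mrc1, the mannose receptor (CD206) of tissue macrophages and dendritic cells, was the member without a treatment pattern. It had 59.4, 73.9 and 60.1 normalized counts in M-MDSC LD, against 72.0, 88.0 and 85.3 in M-MDSC Ctrl, and the groups overlapped (-0.34, 95% interval -1.27 to 0.59, limma adjusted p = 0.876). In PMN-MDSC it had 124.4, 47.1 and 30.9 in LD, against 57.1, 109.0 and 51.1 in Ctrl (-0.26, interval -1.19 to 0.66). The means of the 4 groups lay between 64.5 and 81.8, and no neighbours in their order were apart. Intervals of this width also hold changes of more than 2-fold in M-MDSC, so the data do not show that Mrc1 was the same. Mrc1 contains the microRNA gene Mir511.

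Cd5l encodes a secreted scavenger-receptor protein, also called AIM, that macrophages make. It had 25.4, 5.9 and 7.9 normalized counts in M-MDSC LD, against 5.2, 3.8 and 2.2 in M-MDSC Ctrl. The groups did not overlap, but replicate 1 held most of the distance, and the change did not pass the test (1.36 ± 0.59, limma adjusted p = 0.325). In PMN-MDSC it had 75.7, 27.9 and 49.1 in LD, against 19.4, 29.0 and 23.9 in Ctrl, with overlap (0.96 ± 0.59, limma adjusted p = 0.292). The clearer pattern of Cd5l was between populations. It was lower in M-MDSC than in PMN-MDSC, 4.09-fold in LD (-2.03 ± 0.59, limma adjusted p = 0.00594) and 5.40-fold in Ctrl (-2.43 ± 0.59, limma adjusted p = 0.00171), and both calls held in every alternative that tested it. Its mean over the 12 libraries came mostly from PMN-MDSC (50.9 in LD and 24.1 in Ctrl, against 13.1 and 3.75 in M-MDSC). With no minimum level both were still called (limma adjusted p = 0.0195 in LD and 0.00639 in Ctrl). In M-MDSC it rests on 7 to 35 reads per LD library and 4 to 8 per Ctrl library.

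Vcam1 encodes the adhesion molecule that binds the integrin made of the Itga4 and Itgb1 products. It had 165.9, 70.5 and 63.0 normalized counts in M-MDSC LD, against 20.8, 42.1 and 18.5 in M-MDSC Ctrl. It was 3.47-fold higher without overlap (1.79 ± 0.45, limma adjusted p = 0.0451). Leaving out 1 library at a time, the call was lost 8 of 12 times, with changes of 1.36 (without M-MDSC LD replicate 1, limma adjusted p = 0.178) to 2.15 (without M-MDSC Ctrl replicate 2, where it was called). The other 7 were without M-MDSC LD replicate 3 (limma adjusted p = 0.0554), M-MDSC Ctrl replicates 1 (0.165) or 3 (0.169), PMN-MDSC LD replicate 3 (0.0577), and PMN-MDSC Ctrl replicates 1 (0.0635), 2 (0.0672) or 3 (0.0685). In PMN-MDSC, Vcam1 had 165.0, 58.8 and 101.0 in LD, against 75.5, 115.1 and 102.2 in Ctrl (0.05, 95% interval -0.92 to 1.01), and the difference between the LD changes did not pass the test (1.75 ± 0.64, limma adjusted p = 0.167).

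In untreated mice Vcam1 was 3.69-fold lower in M-MDSC than in PMN-MDSC (-1.88 ± 0.45, limma adjusted p = 0.0016), a call that held in every alternative. In LD mice the populations overlapped, with a difference of -0.14 (95% interval -1.10 to 0.83). An antisense gene, Gm43109, overlaps Vcam1.

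Vcam1 and Cd5l varied together. Within M-MDSC LD and within PMN-MDSC LD the library with the most Mki67 also had the most Vcam1 and the most Cd5l. The order of Mki67 was not that of Vcam1 in M-MDSC Ctrl: replicate 1 had 954.6 normalized counts of Mki67 and 20.8 of Vcam1, and replicate 2 had 775.1 and 42.1. M-MDSC LD replicates 2 and 3 also differed in order, with Mki67 at 2434.4 and 3201 and Vcam1 at 70.5 and 63.0. In PMN-MDSC Ctrl the orders were the same (Mki67 1688, 2097 and 1901, Vcam1 75.5, 115.1 and 102.2). Cd5l followed the order of Mki67 within every group, although M-MDSC Ctrl replicates 2 and 3 were nearly level in Mki67 (775.1 and 774.7). Those 2 libraries had 4 Cd5l reads each, and M-MDSC LD replicates 2 and 3 had 7 and 8, so their order in Cd5l is weakly supported. Over the 12 libraries the log2 levels of Vcam1 and Cd5l correlated at Pearson r = 0.84, and at 0.83 after the group means were taken away. The libraries share their scaling and, within a group, the treatment, so these are descriptions. Without LD replicate 1 of both populations Vcam1 was not called in M-MDSC (1.36, limma adjusted p = 0.0851), and neither was C1qa (2.12, limma adjusted p = 0.0599). Whether cycling cells have a part in these results was not tested.

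**Figure D4:**
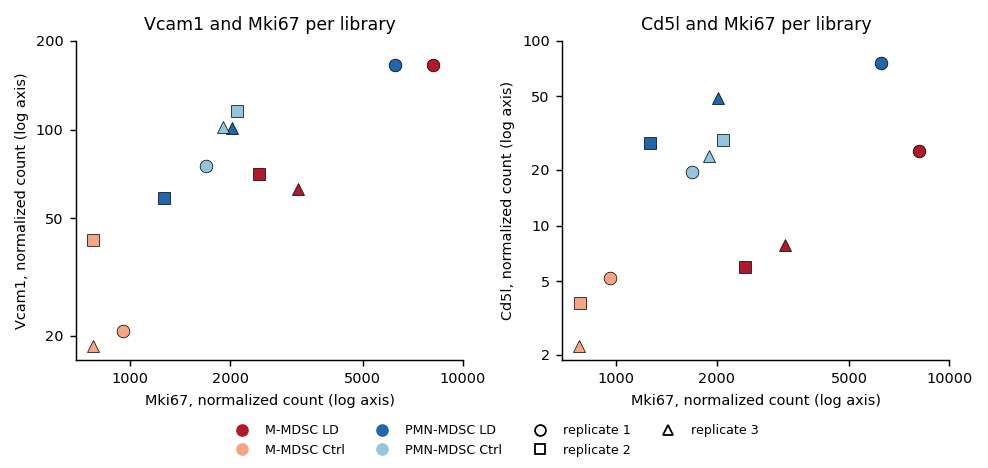
Vcam1 (left) and Cd5l (right) against Mki67 in the 12 libraries, all in normalized counts on log axes; colours are the groups and symbols the replicates. The LD libraries numbered 1, at 8133 and 6242 normalized counts of Mki67, hold the highest Vcam1, 165.9 and 165.0, and PMN-MDSC LD replicate 1 the highest Cd5l, 75.7.

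Across the members, M-MDSC LD had the highest group mean for 5 of the 9 genes, namely C1qa, C1qb, C1qc, Axl and Mertk. It lay apart from the next group for C1qb and Axl, whose next group was M-MDSC Ctrl, and overlapped it for the other 3. M-MDSC Ctrl had the lowest mean for C1qa, C1qc, Mertk, Cd5l and Vcam1. In untreated mice 1 of the 8 tested members was higher in M-MDSC than in PMN-MDSC and 5 were lower, beside 38.8% and 36.8% of all genes, and 6 of the 8 did not overlap, beside 81% of all genes. In LD mice 2 were higher and 1 was lower, beside 38.8% and 36.1% of all genes, and 4 of the 8 did not overlap, beside 75.2%.

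Splenic macrophage markers were read beside these results, since macrophages of the same organ make C1q, CD5L and VCAM1. Of 18 markers 13 were tested, and in M-MDSC 2 were higher in LD (Slc40a1, the iron exporter, by 1.54 ± 0.36, limma adjusted p = 0.0290, and Treml4 by 0.60 ± 0.15, limma adjusted p = 0.0459) and none lower, beside 2.54% and 0.468% of all genes. In PMN-MDSC Siglec1 (0.79 ± 0.25) and Fcgr1 (0.82 ± 0.24) were higher in LD and none lower, beside 7.17% and 8.51% of all genes (limma adjusted p = 0.0421 and 0.0301). The summed level of the 18 markers was 10198 to 12826 normalized counts in M-MDSC LD and 9536 to 11019 in M-MDSC Ctrl, and 14851 to 17387 in PMN-MDSC LD and 19277 to 21898 in PMN-MDSC Ctrl. Slc40a1 alone had 9063 to 10740 in PMN-MDSC LD and 13071 to 14465 in PMN-MDSC Ctrl. In M-MDSC it had 262.2, 77.3 and 79.8 in LD, against 25.9, 45.9 and 52.7 in Ctrl. M-MDSC LD replicate 1 also had the highest sum of neutrophil markers in M-MDSC (82145). The part of that in the change of Slc40a1 was not tested. Without Slc40a1, a choice made after its values were seen, the sum was 9935 to 12748 in M-MDSC LD and 9510 to 10973 in M-MDSC Ctrl. In PMN-MDSC the sum was then 5788 to 6850 in LD and 6206 to 7432 in Ctrl. Spic, the transcription factor of red pulp macrophages, had 107.9, 76.4 and 86.7 normalized counts in M-MDSC LD, against 70.7, 62.2 and 74.6 in M-MDSC Ctrl (0.37 ± 0.37, limma adjusted p = 0.821). Vsig4 and Clec4f were at 0 in all M-MDSC LD libraries, but had only 1 and 2 reads in M-MDSC Ctrl. Cd163 had 13.04, 3.4 and 38.4 in M-MDSC LD, against 29.8, 20.1 and 33.7 in M-MDSC Ctrl. Of the tested markers not called in M-MDSC, Fcgr1, Siglec1, Hmox1 and Spic were higher in LD without overlap and Emr1 was lower. Groups did not overlap for 23.1% of all genes there. The median log2 change of the 13 tested markers in M-MDSC was 0.37, beside -0.037 for all genes. The part of macrophage RNA, or of the neutrophil markers that rose in M-MDSC, in the members' changes was not tested.

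Other clearance genes were read from 6 pathway lists of 102 genes. Of these 75 were tested, and 5 were higher and 1 lower in M-MDSC LD than in M-MDSC Ctrl, beside 2.54% and 0.468% of all genes. Among efferocytosis receptors and bridging molecules 1 of 18 rose, Cd300ld, a phospholipid-binding receptor (1150 ± 110 in LD and 820.8 ± 27.6 in Ctrl, 0.48 ± 0.11, limma adjusted p = 0.0271). None of the 21 genes of engulfment and digestion was called in M-MDSC. Those with the highest mean over the 12 libraries, Ucp2 and Abca7, had changes there of -0.21 ± 0.11 and -0.16 ± 0.11. Nr1h3, the sterol-sensing receptor LXR alpha, had 284.3 ± 117.6 in M-MDSC LD and 120.5 ± 10.2 in M-MDSC Ctrl (1.16 ± 0.40, limma adjusted p = 0.159).

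Of 7 complement components beyond C1q tested in M-MDSC, 1 rose and 1 fell. Fcnb, which encodes a ficolin that starts the lectin pathway, rose by 2.96 ± 0.51 (limma adjusted p = 0.00504), with 1750, 315.0 and 737.9 normalized counts in LD and 80.8 to 112.8 in Ctrl. Cfp, properdin, which stabilises the alternative-pathway convertase, fell by 0.69 on the log2 scale (391.6 ± 6.1 in LD and 638.5 ± 127.4 in Ctrl, limma adjusted p = 0.0329). Of the proteases that join C1q in the C1 complex, C1ra had 14.4 to 27.6 normalized counts in M-MDSC LD and 16.9 to 44.0 in M-MDSC Ctrl. Of 14 complement receptors and regulators 2 rose. Lair1, an inhibitory receptor that binds C1q and collagens, had 1419, 1694 and 1838 in M-MDSC LD, against 1042, 877.4 and 878.5 in M-MDSC Ctrl (0.82 ± 0.15, limma adjusted p = 0.0084). Its change was larger in M-MDSC than in PMN-MDSC by 1.19 ± 0.22 (limma adjusted p = 0.0120). Itgax, the alpha chain of complement receptor CR4, had 1265, 1105 and 1071 in M-MDSC LD, against 598.6, 504.3 and 786.5 in M-MDSC Ctrl (0.88 ± 0.16, limma adjusted p = 0.00611).

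Among 7 lectins of the mannose receptor family and related scavengers Ly75 (DEC-205) rose by 2.09 ± 0.39 (635.3, 148.6 and 298.5 in LD, against 44.1, 93.8 and 84.7 in Ctrl, limma adjusted p = 0.00815). Within M-MDSC, Fcnb, Ly75, Cd300ld and Itgax were each highest in LD replicate 1, the M-MDSC library with the highest sum of neutrophil markers (82145). Lair1 was lowest there among the M-MDSC LD libraries. In PMN-MDSC LD, Cd300ld had 8000 ± 150 normalized counts and Itgax 3334 ± 643. The part of the neutrophil markers in the changes of these genes was not tested. None of the 8 VCAM1 partners and endothelial adhesion genes was called. Itga4 had 20699 ± 2832 normalized counts in M-MDSC LD and 20315 ± 1356 in M-MDSC Ctrl (0.02 ± 0.14), and Itgb1 had 5977 ± 122 and 5439 ± 457 (0.14 ± 0.13).

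In PMN-MDSC, 4 of the same 75 genes were higher and 12 lower in LD, beside 7.17% and 8.51% of all genes. Abca1, a cholesterol exporter induced in cells that have engulfed others, fell to 101.8 ± 71.4 in PMN-MDSC LD, against 670.4 ± 126.7 in PMN-MDSC Ctrl (-2.92 ± 0.35, limma adjusted p = 2.2e-04). Its change in M-MDSC was 0.92 ± 0.35 and not called, and the difference between the changes passed the test (3.83 ± 0.50, limma adjusted p = 0.00225). Crk, Abcg1, Mylip and Ppard also fell, the first 3 by 0.50 to 0.67 on the log2 scale. Of the efferocytosis list Cd300a (-0.50 ± 0.09) and Cd300lf (-0.59 ± 0.16) fell, and Cd14 rose (1.05 ± 0.33, limma adjusted p = 0.0433). The 12 lower genes include Mfge8, another bridging ligand, and the lectin Clec10a, which passed the minimum mean only through their M-MDSC levels, so values alone are given. Mfge8 was at 0 in all PMN-MDSC LD libraries, against 7.1, 1.8 and 4.8 normalized counts in PMN-MDSC Ctrl. Clec10a had 0, 0 and 4.2 in PMN-MDSC LD, against 23.5, 3.5 and 6.4 in PMN-MDSC Ctrl.

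Among complement genes of PMN-MDSC, C3, the central component, had 22784, 17773 and 20649 normalized counts in LD, against 10797, 11927 and 9850.2 in Ctrl (0.91 ± 0.15, limma adjusted p = 0.0015). Its LD change was lower in M-MDSC than in PMN-MDSC (-1.05 ± 0.21, limma adjusted p = 0.0189). Cfb, factor B, rose by 1.20 ± 0.31 and Cd55, which speeds the decay of convertases, by 1.79 ± 0.53 (limma adjusted p = 0.0196 and 0.0341). C5ar2 and Itgax fell by 0.62 and 0.63 on the log2 scale, and of the lectins Clec7a (-0.54 ± 0.15) fell. No VCAM1 partner was called, with changes of -0.22 ± 0.14 for Itga4 and -0.01 ± 0.13 for Itgb1.

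In untreated mice 29 of the 75 genes were higher and 34 lower in M-MDSC than in PMN-MDSC, beside 38.8% and 36.8% of all genes. Among efferocytosis receptors the scavenger receptors Msr1 (5.24 ± 0.21) and Scarb1 (3.82 ± 0.21) were higher in M-MDSC, and Cd300ld (-3.34 ± 0.11) and Cd300lf (-4.58 ± 0.16) were lower. Among engulfment genes Dock1 (3.56 ± 0.29) and Lamp1 (1.57 ± 0.13) were higher, and Mylip (-3.05 ± 0.12) and Abcg1 (-1.63 ± 0.09) lower. Cfb (4.49 ± 0.31) and C4b (1.16 ± 0.37) were higher in M-MDSC. Cfp (-1.42 ± 0.16), Fcna (-2.63 ± 0.59) and the anaphylatoxin receptors C5ar1 (-5.23 ± 0.14) and C5ar2 (-5.56 ± 0.18) were lower, as was Itgax (-3.04 ± 0.16). Of the lectins Colec12 was higher (3.14 ± 0.40), and Clec7a (-2.35 ± 0.15), Clec4n (-3.50 ± 0.31) and Ly75 (-4.25 ± 0.39) were lower. Of the VCAM1 partners Itgb1 (1.66 ± 0.13), Itgb7 (1.60 ± 0.23) and Icam1 (0.71 ± 0.12) were higher and Selp (-4.76 ± 0.77) was lower. Fcna and Selp had means under 10 in both M-MDSC groups, and Colec12 in both PMN-MDSC groups. They passed the minimum mean only through the population where they were higher, so their differences are read as values only. The limma adjusted p of the other genes named here was at most 0.0112.

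The genes whose log2 levels followed each member most closely over the 12 libraries were ranked by Pearson correlation, as a description. For the mean of the C1q chains they were Bhlhe40 (0.84), Hist1h2bj, Hist1h3b, Hist2h2bb, Hist1h4k, Adamdec1, Gtse1 and Bcl2a1b (0.81 to 0.83), and after the group means were taken away Ndufv2 (0.94), Ywhae, Eif4b, Mta1, Atp5a1, Rps13, Rps14 and Fau (0.91 to 0.94). For Axl they were Clic4 (0.97), Cyth3 and Nr1h3 (both 0.96), and within groups Pitrm1, Pprc1 and Nr2c2ap (0.95 to 0.97). For Mertk they were H2-Q5, Prpf3 and Ankle1 (0.74 to 0.78), and within groups March8, Ift52 and Vac14 (0.90 to 0.91). For Mrc1 they were Dand5, Slc19a2 and Nsmce4a (0.84 to 0.86), and within groups Serpina3g, Prps1l3 and Ranbp1 (0.94 to 0.95). For Cd5l they were Lta4h, Asns and Serpinb1a (0.97 to 0.98), and within groups Depdc1b, Dstn and Cdc7 (0.95 to 0.96). For Vcam1 they were Cit, Spc25 and Hist1h2ac (0.93 to 0.95), and within groups Gsg2, Esco2 and Cpne3 (0.93 to 0.95).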

How the data were processed

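Per the labels' protocols, libraries were made from 100 ng of total RNA after probe-based depletion of ribosomal RNA. The authors deposited 1 table of normalized counts (unit: a signal, reads divided by 1 size factor per library) for 23479 genes, of which 3377 had no read. Every value was a whole number of reads within 0.001 (100.0% of values), so reads were recovered. Per the submitters' processing notes the tools were STAR (2.5.3a), HTSeq (0.6.1) and DESeq2, and the build was mm10. The annotation and strand setting are not given in the sources used here.

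Changes were tested with limma 3.58.1 (R 4.3.3) on log2(normalized count + 1), for 11122 genes with a mean of at least 10, with 1 mean per group, a trended empirical Bayes and 8 residual degrees of freedom. The added 1 understates changes of low genes. A fold is the fitted log2 change turned back into a ratio. The 5 comparisons were LD against Ctrl in each population, their difference, and M-MDSC against PMN-MDSC in LD and in Ctrl. Alternatives were edgeR 4.0.16 and DESeq2 1.42.0 on the recovered reads, other pseudocounts, minimum levels and scalings, robust fits, sample weights, blocks by replicate number or presumed animal, only the groups compared, and libraries left out. On the recovered reads edgeR called 420 genes for LD against Ctrl in M-MDSC, 1659 in PMN-MDSC, 284 for their difference, and 8212 in LD and 8426 in Ctrl between the populations. The fits were tested on simulated data.

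The members and lists were chosen with earlier results of these data known. Members are named in every case, and of each list up to 4 genes called with the smallest adjusted p (up to 2 as values where none was). Slc40a1, Treml4, Spic, Siglec1, Fcgr1, Hmox1, Emr1, Vsig4, Clec4f, Cd163, Pros1, Tyro3, C1ra, Nr1h3 and Ppard were named after their values were seen. A gene that this rule names is not reported here. Of 182 list entries 181 matched. Exon lengths are from GENCODE and windows from RefSeq, both of the mm10 build, and 7 of the 9 members had a window. Same-numbered libraries of 2 groups deviated from their group means with correlations of -0.102 to 0.208. No pair of groups had all 3 above 0.1, and the numbers were not taken as pairs. Between M-MDSC LD and PMN-MDSC LD, replicates 1, 2 and 3 correlated at 0.208, 0.125 and 0.068. With other numbers the highest values there were -0.066, 0.011 and 0.053. The labels do not say whether these libraries share an animal, and the main tests treat them as independent.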

Additional observations from a re-analysis of the deposited data

Results flagged for a closer look

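Axl was set apart because its LD change differed between the populations by a test of the difference itself: 1.92 ± 0.47 log2 units larger in M-MDSC than in PMN-MDSC (limma adjusted p = 0.0482, 95% interval 0.92 to 2.92). All 3 M-MDSC LD libraries lay above all 3 M-MDSC Ctrl libraries, whereas in PMN-MDSC 1 LD library lay above and 2 below all 3 Ctrl libraries. The call was lost in 15 of 25 alternatives, and the adjusted p ran up to 0.117 over them.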

How the results depend on the processing

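Each of the 14 calls of members kept its direction under every alternative that tested the gene. Members called higher in M-MDSC LD than in M-MDSC Ctrl numbered 4; they were 1 (Axl) with no minimum level, 2 with a minimum mean of 50 (where fewer members were tested), 2 with only the groups compared, 2 without both LD libraries numbered 1, and 1 to 4 with 1 library left out. Over all genes 335 were called in that comparison, 728 by DESeq2, 976 with sample weights and 192 to 549 with 1 library left out. In PMN-MDSC 0 members were called, 1 (Axl) without both LD libraries numbered 1 and 0 to 1 with 1 library left out, and 890 to 2162 genes were called with 1 library left out (1745 with all). For the difference of the LD changes 1 member was called, 0 with a pseudocount of 0.5, no minimum level, TMM scaling, robust empirical Bayes or the replicate block by number, 3 by DESeq2, 2 with sample weights and 0 to 2 with 1 library left out. Over all genes 250 were called, 125 with no minimum level, 701 by DESeq2, 524 with sample weights, 536 with a replicate block by presumed animal, 773 without both LD libraries numbered 1 and 113 to 832 with 1 library left out. Between the populations in Ctrl 6 members were called, 4 with no minimum level, 2 with a minimum mean of 50 and 3 to 6 with 1 library left out. With the replicate block by number 3 members were called in M-MDSC, where Vcam1 had limma adjusted p = 0.0526, and 213 genes for the difference. The labels give same-numbered libraries nothing in common beyond the number. Where not stated, the cause was not tested.

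Changes that were not called turned sign in some settings. For LD against Ctrl in PMN-MDSC, C1qb was -0.25 and Vcam1 -0.20 with sample weights, and -0.26 and -0.31 without both LD libraries numbered 1. With 1 library left out Axl ran from -0.73 to 0.14, C1qa from -0.70 to 0.22, C1qb from -0.34 to 0.82, Mrc1 from -0.83 to 0.16 and Vcam1 from -0.31 to 0.42. For the difference of the LD changes, Cd5l was -0.067 with a pseudocount of 8 and -0.18 to 0.78 with 1 library left out, and Mrc1 was 0.38 with sample weights, 0.54 without both LD libraries numbered 1 and -0.50 to 0.49 with 1 left out. For M-MDSC against PMN-MDSC in LD, C1qc was -0.12 with upper-quartile scaling and -0.13 to 0.34 with 1 left out, Mrc1 was -0.07 by edgeR, -0.069 by DESeq2 and -0.25 to 0.74 with 1 left out, and Vcam1 was -0.57 to 0.23 with 1 left out. In Ctrl, C1qb was -0.10 with sample weights and -0.17 to 0.99 with 1 left out. TMM scaling moved the median of all genes in M-MDSC against PMN-MDSC to 0.17 in LD and 0.16 in Ctrl, and upper-quartile scaling to -0.08 and -0.12; the members called between the populations stayed called under both. The reads carry no molecular identifiers, and Gas6, with 0 to 3 reads per library, could not be tested.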
